A study of Mus musculus with 6 samples.

Results

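The nuclear genes for the mitochondrial respiratory chain and ATP synthase were followed here by complex, in bulk RNA of splenic natural killer (NK) cells of the mouse. Members were the protein-coding genes whose symbols begin with Ndufa, Ndufb, Ndufc, Ndufs or Ndufv (complex I), Sdha to Sdhd (complex II), Uqcr (complex III), Cox4 to Cox8 (complex IV) or Atp5 (complex V). The rule found 93 of the 50686 genes of the deposited count table, on 19 chromosomes. Of these, 82 encode subunits, with 36 in complex I, 4 in complex II, 8 in complex III, 19 in complex IV and 15 in complex V. Another 8 (Ndufaf1 to Ndufaf8) are assembly factors of complex I, and 3 (Cox7a2l, Atp5s and Atp5sl) carry a subunit's name without being a subunit. Ndufa4 and Ndufa4l2, named after complex I, were counted in complex IV, where NDUFA4 resides. The symbol rule leaves out some subunits, such as Cyc1 of complex III, and everything encoded by mitochondrial DNA.

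The Eumyc group holds 3 libraries of NK cells from C57BL/6J mice that had received Eµ-myc lymphoma, a Myc-driven tumour of B cells, into a vein and were killed at day 14. The WT group holds 3 libraries from healthy C57BL/6J mice, whose genotype is given as wild type. Cells of both groups were depleted of B cells, selected with CD49b beads and sorted as NK1.1+ TCRb-, and for Eumyc the fraction not held by the beads was sorted as well. That added fraction and the lymphoma cannot be told apart in any difference below. The labels give neither age nor sex, and do not say if libraries of a group are from separate animals, so the p-values may cover technical spread only.

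The Eumyc libraries held 44456157 to 66615602 counts and the WT libraries 16407611 to 36534191, so every Eumyc library was the deeper. All 10 NK cell markers were detected, and their summed level was 14080 to 15116 CPM (counts scaled to a common library total) in Eumyc and 15441 to 15717 in WT. Sums for other lists of 10 markers were higher in every Eumyc library. T cell markers summed to 474 to 529 CPM in Eumyc and 374 to 409 in WT, and B cell markers to 300 to 694 in Eumyc and 199 to 212 in WT. Monocyte and macrophage markers summed to 2702 to 3293 CPM in Eumyc and 1827 to 2008 in WT. Most of this sum came from Itgax (mean 1214 CPM in Eumyc, 768 in WT) and Ccr2 (978 and 831). It is therefore no measure of how many monocytes were present. Lyz2 had means of 186 CPM in Eumyc and 16.7 in WT, and Csf1r 226 and 42.1. In this list 8 of 10 markers rose and 1 fell (Ly6c2), and in the B cell list 7 of 9 tested rose and 1 fell (Ighd). In the NK list 1 of 10 rose and 5 fell, and in the T cell list 4 of 10 rose and 0 fell. Of neutrophil markers 8 of 9 tested rose, of erythroid markers 9 of 10 and of cell division markers 10 of 10, and 0 fell. Over all genes tested 25.7% rose and 23.1% fell, by the test given below. Neutrophil markers reached 39.9 to 50.2 CPM in Eumyc and 1.01 to 4.08 in WT, and erythroid markers 67.3 to 80.5 in Eumyc and 15.4 to 34.7 in WT. Cell division markers summed to 1918, 1975 and 2719 CPM in Eumyc 1 to 3, against 271, 251 and 618 CPM in WT 1 to 3. In the B cell and neutrophil lists 2 of 10 markers each were under 1 CPM in every library. The part of other cells, of cell division or of depth in the values below was not tested, and in bulk RNA fewer cells of a type and less RNA per cell cannot be told apart.

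Complexes I and II of the inner mitochondrial membrane feed electrons from NADH and succinate to ubiquinone, complex III passes them to cytochrome c, and complex IV passes them to oxygen. Complexes I, III and IV pump protons in doing so, and complex V, the ATP synthase, lets the protons return and makes ATP. Every complex except II combines subunits from nuclear genes with subunits from mitochondrial DNA. Activated NK cells are known to raise both glycolysis and oxidative phosphorylation.

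Many nuclear respiratory genes are textbook targets of the transcription factor NRF1 (nuclear respiratory factor 1), whose motif is a palindrome with the core letters GCATGCGC. Promoters from RefSeq (build GRCm38.p6) were found for 74 of the 93 members, and the core was searched on both strands in the 250 bases before an annotated start. It was present in 9 of the 74 (12.2%), in 2.56% of the 27025 genes of the promoter table and in 4.99% of the 10183 tested genes found in it. Of the 9 members 6 rose in Eumyc (Ndufa8, Ndufa11, Sdhb, Cox6a1, Atp5g2 and Atp5k), Atp5l fell, and Ndufa6 and Ndufaf4 did not pass. Among the matched members without the core, 37 of 63 tested rose. The windows of 5 that rose and of the 1 that fell are shown because later paragraphs turn on these genes. Capitals mark the core, and where it lies on both strands the overlapping matches make one longer run.
Ndufa11, chr17:56717512-56717761 (plus strand): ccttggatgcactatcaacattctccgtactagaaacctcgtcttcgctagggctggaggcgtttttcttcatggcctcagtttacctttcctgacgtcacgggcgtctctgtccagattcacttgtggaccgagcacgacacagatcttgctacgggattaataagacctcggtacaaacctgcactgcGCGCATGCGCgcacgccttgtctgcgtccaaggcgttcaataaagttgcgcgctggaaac
Sdhb, chr4:140961021-140961270 (plus strand): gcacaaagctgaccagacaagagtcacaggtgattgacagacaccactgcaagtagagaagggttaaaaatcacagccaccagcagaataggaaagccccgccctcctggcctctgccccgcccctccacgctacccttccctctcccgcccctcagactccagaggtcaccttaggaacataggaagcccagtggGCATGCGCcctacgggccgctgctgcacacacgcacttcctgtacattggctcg
Cox6a1, chr5:115348959-115349208 (minus strand): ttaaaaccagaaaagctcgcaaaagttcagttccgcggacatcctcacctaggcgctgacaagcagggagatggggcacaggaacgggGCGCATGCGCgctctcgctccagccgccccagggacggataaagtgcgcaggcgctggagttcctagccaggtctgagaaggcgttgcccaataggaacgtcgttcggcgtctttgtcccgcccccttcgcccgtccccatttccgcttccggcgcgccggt
Atp5g2, chr15:102671048-102671297 (minus strand): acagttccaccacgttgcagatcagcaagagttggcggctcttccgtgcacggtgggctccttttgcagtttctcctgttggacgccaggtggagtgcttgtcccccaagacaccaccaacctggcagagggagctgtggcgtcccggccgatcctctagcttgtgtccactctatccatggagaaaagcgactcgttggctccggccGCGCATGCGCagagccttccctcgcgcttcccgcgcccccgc
Atp5k, chr5:108434400-108434649 (minus strand): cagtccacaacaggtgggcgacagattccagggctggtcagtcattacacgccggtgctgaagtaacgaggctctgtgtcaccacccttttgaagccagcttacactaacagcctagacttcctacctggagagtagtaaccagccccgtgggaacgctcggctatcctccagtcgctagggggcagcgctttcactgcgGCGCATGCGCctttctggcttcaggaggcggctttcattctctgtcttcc
Atp5l, chr9:44920743-44920992 (minus strand): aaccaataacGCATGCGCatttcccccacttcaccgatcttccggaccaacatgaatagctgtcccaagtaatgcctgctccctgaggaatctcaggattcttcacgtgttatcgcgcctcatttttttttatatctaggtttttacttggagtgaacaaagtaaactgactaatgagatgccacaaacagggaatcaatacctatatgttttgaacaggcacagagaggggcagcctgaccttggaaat
The capitals begin 60 bases before the start in Ndufa11, 54 in Sdhb, 162 in Cox6a1, 42 in Atp5g2, 50 in Atp5k and 240 in Atp5l. Other motifs, also read on both strands, were no more frequent in members than in tested genes. CCGGAAGT, the motif of GABPA, was in 4.05% of members and 6.76% of tested genes, AAGATGGC of YY1 in 1.35% of members and 2.59% of tested genes, and the E-box CACGTG, which Myc can bind, in 6.76% of members and 9.53% of tested genes. These are matches of letters in a window and no measure of binding. Bases after the start were not searched, so motifs that lie there were not counted.

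Transcripts of every complex were higher in Eumyc NK cells as a sum, and the ATP synthase genes stood highest. Of the 88 members tested, 53 rose and 3 fell in Eumyc, while 32 did not pass. Over all 15458 genes tested 48.8% passed, with 25.7% higher and 23.1% lower in Eumyc. The median log2 fold change of the members was 0.30 and that of all genes was -0.005. The CPM values of every Eumyc library lay above those of every WT library for 62 members and below for 5, and the groups overlapped for 21. Among all genes tested, 31.3% lay fully above and 28.9% fully below. By complex, 19 of 36 members rose in complex I, 3 of 4 in II, 7 of 8 in III, 10 of 14 tested in IV and 13 of 15 in V. The medians were 0.25 in complex I, 0.37 in II, 0.38 in III, 0.30 in IV and 0.475 in V, and no difference between complexes was tested. The test was edgeR's quasi-likelihood test with Benjamini-Hochberg adjustment over all genes at 0.05, and all adjusted p-values below are from it. The 5 members not tested (Cox4i2, Cox7b2, Cox8b, Cox8c and Ndufa4l2) are isoforms of complex IV with almost no counts.

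**Figure D1:**
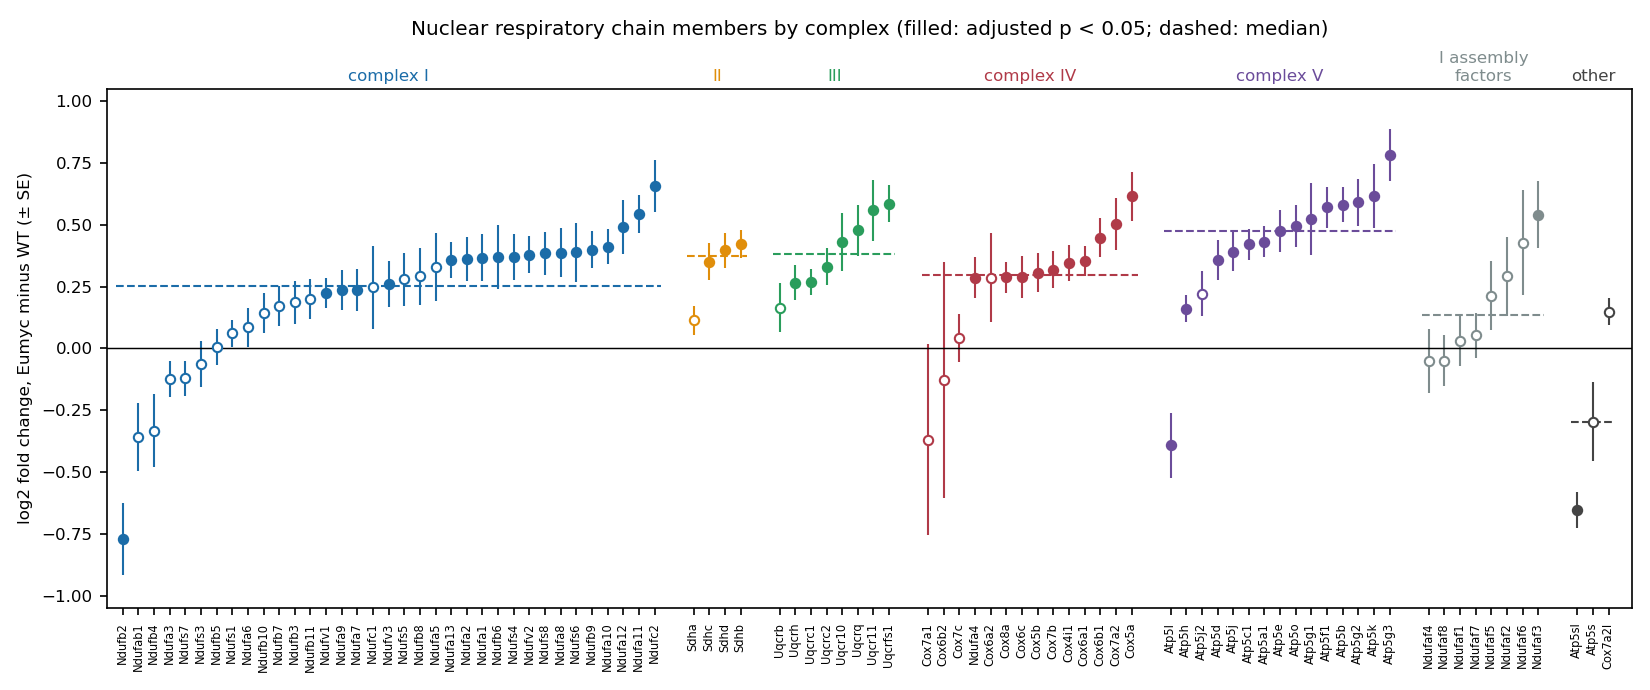
Log2 fold change of Eumyc over WT with its SE for 87 of the 88 tested members, ordered within each complex. Filled points have an adjusted p under 0.05, and a dashed line in each complex or other group marks the median of all its tested members. Complex V lies highest with a median of 0.475, and Ndufb2, Atp5l and Atp5sl are the filled points below 0.

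Complex I showed the most uneven picture. Among its 29 accessory subunits 15 rose and 1 fell, with a median of 0.28. Among the 7 core subunits, which carry out NADH oxidation and electron transfer, 4 rose and none fell, with a median of 0.14. By name series, 9 of 13 Ndufa genes, 4 of 8 Ndufs genes, all 3 Ndufv genes and 1 of 2 Ndufc genes rose. In the Ndufb series, whose proteins sit in the membrane arm, 2 of 10 rose (Ndufb6 and Ndufb9) and Ndufb2 fell. Without Eumyc 3 or without WT 2 the count of complex I genes that rose was 12, with 2 in the core and 1 in the Ndufv series (Ndufv2). The Ndufs count was 2 without Eumyc 1, Eumyc 3 or WT 2. The Ndufa count of 9 was 6 without WT 1. In the Ndufb series 4 rose without Eumyc 2 or WT 3, and 1 (Ndufb9) without any other single library.

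Of the NADH-oxidising core, Ndufv1, which binds NADH, had 66.6, 65.1 and 70.2 CPM in Eumyc and 57.6, 56.2 and 59.3 CPM in WT. Every Eumyc library stood above every WT library, and the gene rose by 0.22 ± 0.06 on the log2 scale (SE, adjusted p = 0.0165), but missed the threshold without Eumyc 3 (0.0545) or WT 2 (0.0539). Its partner Ndufv2 rose by 0.38 ± 0.08 (adjusted p = 0.00422), at 64.4, 58.0 and 63.1 CPM in Eumyc against 45.9, 45.3 and 51.5 CPM in WT. Ndufs1, the largest iron-sulphur subunit of this module, had 75.8, 72.7 and 77.2 CPM in Eumyc and 72.7, 71.6 and 72.0 CPM in WT and did not pass (0.06 ± 0.05, adjusted p = 0.374). Differences among these 3 subunits were not tested.

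In the ubiquinone-reducing core, Ndufs8 had 46.5, 46.1 and 52.9 CPM in Eumyc and 35.3, 36.3 and 40.2 CPM in WT, with no overlap, and rose by 0.38 ± 0.09 (adjusted p = 0.00663). Ndufs3 had 38.9 ± 1.60 CPM in Eumyc and 40.5 ± 4.61 CPM in WT (SD, n = 3 each), with WT 2 the highest library. Ndufs7 had 55.6, 52.6 and 55.9 CPM in Eumyc and 57.9, 64.2 and 56.0 CPM in WT. Ndufs3 and Ndufs7 did not pass, with adjusted p-values of 0.606 and 0.195.

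The largest rises in complex I were in accessory subunits. Ndufc2 (ENSMUSG00000030647, chromosome 7 from 97400003 to 97407802), a membrane arm subunit, had 29.6, 29.8 and 34.6 CPM in Eumyc and 19.6, 18.1 and 22.0 CPM in WT. All Eumyc libraries were above all WT libraries, and it rose by 0.66 ± 0.11 (adjusted p = 0.00151). Ndufa11, a membrane arm subunit whose promoter is shown above, had 38.4, 36.4 and 38.3 CPM in Eumyc and 25.7, 24.7 and 27.4 CPM in WT and rose by 0.54 ± 0.08 (adjusted p = 0.000842). Ndufa12 had 12.9, 12.3 and 13.9 CPM in Eumyc and 9.84, 8.81 and 9.16 CPM in WT and rose by 0.49 ± 0.11 (adjusted p = 0.00678).

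Ndufb2 (ENSMUSG00000002416, chromosome 6 from 39592574 to 39603382), a small membrane arm subunit, was the only Ndufb gene that fell. In that series 2 of 10 rose and 7 did not pass. Of the 7, Ndufb4 also lay below WT in every Eumyc library (-0.33 ± 0.15, adjusted p = 0.0909). Ndufb2 had 3.88, 4.64 and 4.44 CPM in Eumyc and 6.67, 7.76 and 7.72 CPM in WT, with no overlap, and fell by 0.77 ± 0.15 (adjusted p = 0.00321). In the GENCODE M21 annotation its exons share bases with Gm42420 on the same strand and with Gm16272 and Braf on the other, and the strand setting of the counting is not given in the sources used here. Ndufab1, the mitochondrial acyl carrier protein, had 19.0, 18.2 and 15.5 CPM in Eumyc and 18.6, 23.8 and 25.3 CPM in WT and did not pass (-0.36 ± 0.14, adjusted p = 0.0577). It passed without WT 1 and in the authors' deposited table.

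Complex II has no subunit from mitochondrial DNA, and 3 of its 4 genes rose. Sdhb (ENSMUSG00000009863, chromosome 4 from 140961203 to 140979193), the iron-sulphur subunit, had 113, 105 and 112 CPM in Eumyc and 80.3, 85.1 and 80.4 CPM in WT. The groups were far apart, and it rose by 0.42 ± 0.06 (adjusted p = 0.000688). The membrane anchors rose by similar amounts, Sdhc by 0.35 ± 0.07 (adjusted p = 0.00496) and Sdhd by 0.40 ± 0.07 (adjusted p = 0.0023). Sdha, the flavoprotein that oxidises succinate, had 221, 217 and 223 CPM in Eumyc and 206, 214 and 190 CPM in WT. Its groups did not overlap but its difference of 0.11 ± 0.06 did not pass (adjusted p = 0.137). Differences among the 4 genes were not tested.

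In complex III 7 of 8 genes rose. Uqcrfs1 (ENSMUSG00000038462, chromosome 13 from 30540308 to 30545362), the Rieske iron-sulphur protein, had 99.4, 96.3 and 105 CPM in Eumyc and 69.7, 60.5 and 70.6 CPM in WT. The lowest Eumyc library exceeded the highest WT library, and the mean was 1.5-fold that of WT (adjusted p = 0.000574). The core proteins Uqcrc1 and Uqcrc2 rose by 0.27 ± 0.05 and 0.33 ± 0.07 (adjusted p = 0.0037 and 0.00691).

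Of the small subunits of complex III, Uqcr11 rose by 0.56 ± 0.12 (adjusted p = 0.00648), at 24.2, 19.5 and 22.8 CPM in Eumyc and 13.9, 14.2 and 17.2 CPM in WT. Uqcrq rose by 0.48 ± 0.10 (adjusted p = 0.00565) and Uqcr10 by 0.43 ± 0.12 (adjusted p = 0.0173). Uqcrh, the hinge protein that contacts cytochrome c1, rose by 0.27 ± 0.07 (adjusted p = 0.0142). Uqcr10 missed the threshold without Eumyc 3, WT 1 or WT 2 (adjusted p = 0.0576, 0.0701 and 0.0684), and Uqcrh without WT 2 (0.0544). Uqcrb, which binds near the quinone site, had 30.5, 24.98 and 28.7 CPM in Eumyc and 23.5, 25.3 and 26.3 CPM in WT, and the groups overlapped. Its difference of 0.16 ± 0.10 did not pass (adjusted p = 0.2), and 3 near-identical copies of the gene exist in the annotation.

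**Figure D2:**
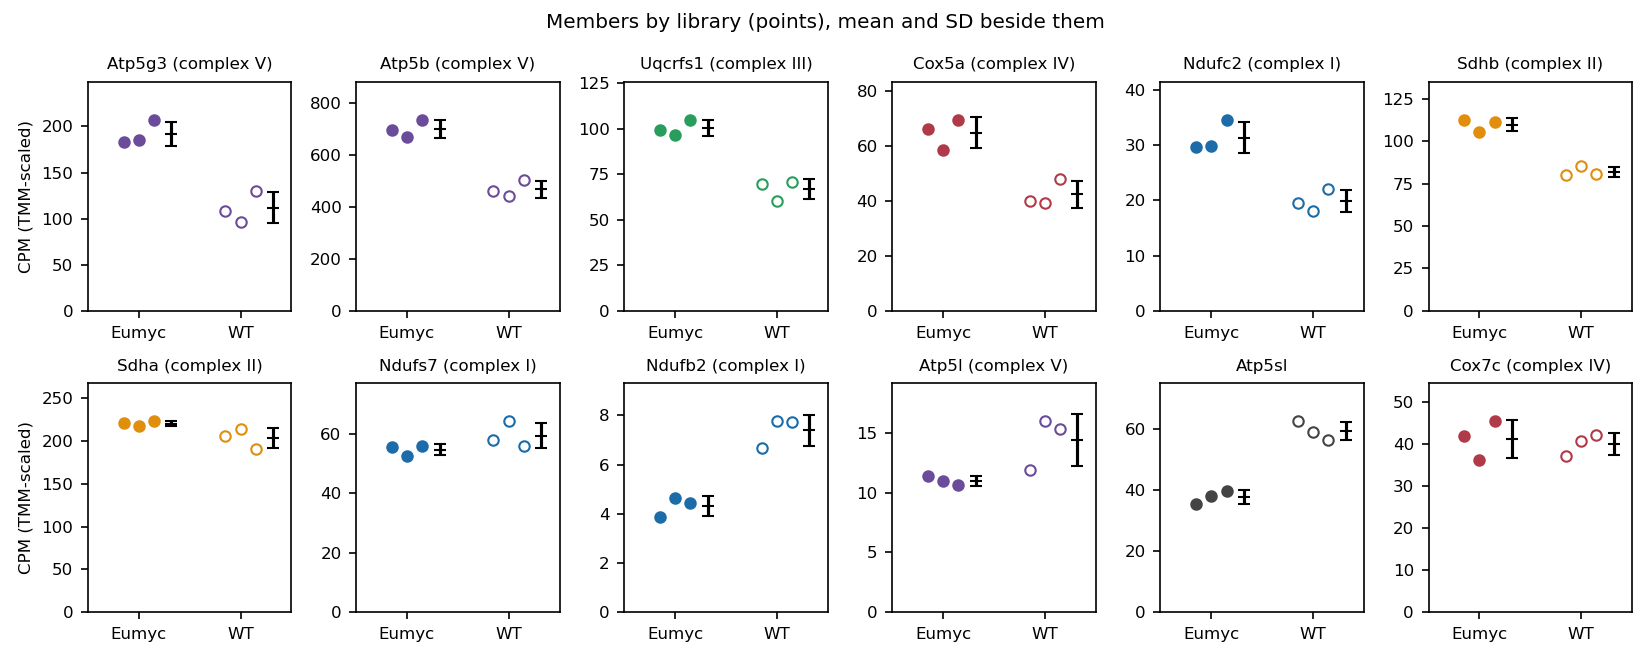
CPM by library for members of complexes I to V and Atp5sl, with filled points for Eumyc, open points for WT and the mean with its SD beside them. Atp5g3, Atp5b, Uqcrfs1, Cox5a, Ndufc2 and Sdhb are separated upward, Ndufb2, Atp5l and Atp5sl downward, and the groups overlap in Cox7c.

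In complex IV the isoforms expressed throughout the body rose and their tissue-restricted partners stayed at low levels in both groups. Cox5a (ENSMUSG00000000088, chromosome 9 from 57521274 to 57532426), a matrix-facing subunit, had 66.5, 58.7 and 69.7 CPM in Eumyc and 40.2, 39.3 and 48.1 CPM in WT. It had the largest fold of the complex, 1.53 (adjusted p = 0.00161). Cox7a2 had 67.0, 57.7 and 69.7 CPM in Eumyc and 42.3, 43.1 and 52.0 CPM in WT and rose by 0.50 ± 0.10 (adjusted p = 0.00475). Cox6b1, which faces the intermembrane space, had 83.7, 74.2 and 89.4 CPM in Eumyc and 60.9, 58.8 and 61.7 CPM in WT and rose by 0.45 ± 0.08 (adjusted p = 0.00212). In all 3 genes each Eumyc library exceeded each WT library.

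The other complex IV genes that rose did so by 0.29 to 0.35. They were Cox4i1 (0.35 ± 0.07), Cox6a1 (0.35 ± 0.06), Cox7b (0.32 ± 0.07), Cox5b, Cox6c, Cox8a (0.29 ± 0.06) and Ndufa4 (0.29 ± 0.08). Ndufa4 missed the threshold without Eumyc 3, WT 1 or WT 2 (adjusted p = 0.064, 0.0692 and 0.0756), as did Cox6c (0.0711, 0.0737 and 0.0837), and Cox5b missed it without WT 1 (0.0594). Cox7c, a small membrane subunit, had 41.9, 36.3 and 45.4 CPM in Eumyc and 37.1, 40.8 and 42.2 CPM in WT, and its groups overlapped (0.04 ± 0.10, adjusted p = 0.743).

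Per kilobase of transcript, the muscle form Cox6a2 made up 3.19 ± 0.34% of the subunit 6A transcripts in Eumyc and 3.31 ± 0.54% in WT (SD, n = 3 each). The testis form Cox6b2 made up 1.15 ± 0.62% of subunit 6B in Eumyc and 1.80 ± 0.44% in WT, and the muscle form Cox7a1 1.25 ± 0.11% of subunit 7A in Eumyc and 2.23 ± 0.97% in WT. None of the 3 passed the test, with log2 fold changes of 0.29 ± 0.18, -0.13 ± 0.48 and -0.37 ± 0.39 (adjusted p = 0.221, 0.841 and 0.457). Cox4i2, the form of subunit 4 known from lung, had at most 0.18 CPM in a library, and Cox8b and Ndufa4l2 were lower still. Cox7b2 and Cox8c had 0 counts in every library. In the 3 families given as shares, the shares overlapped between the groups.

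In complex V 13 of 15 genes rose and Atp5l fell, and for 14 genes all Eumyc libraries stood above all WT libraries. Atp5b (ENSMUSG00000025393, chromosome 10 from 128083273 to 128090391), the beta subunit, had 695, 670 and 736 CPM in Eumyc and 460, 441 and 505 CPM in WT. Its mean was 1.5-fold that of WT (adjusted p = 0.000493), and that of Atp5a1, the alpha subunit, was 1.35-fold (adjusted p = 0.000977). The central stalk genes Atp5c1, Atp5d and Atp5e rose by 0.42 ± 0.06, 0.36 ± 0.08 and 0.48 ± 0.08. All 4 peripheral stalk genes rose, Atp5f1 by 0.57 ± 0.08, Atp5o by 0.50 ± 0.08, Atp5j by 0.39 ± 0.08 and Atp5h by 0.16 ± 0.05. Atp5h missed the threshold without Eumyc 1, Eumyc 2, Eumyc 3, WT 1 or WT 2 (adjusted p = 0.0572 to 0.107), and also at equal depth.

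The c subunit forms the rotating membrane ring, and 3 genes encode the same mature protein behind different targeting sequences. Atp5g3 (ENSMUSG00000018770, chromosome 2 from 73908447 to 73911326) had 183, 185 and 207 CPM in Eumyc and 109, 96.7 and 130 CPM in WT. It had the largest rise of the 93 members, 0.78 ± 0.11 (adjusted p = 0.000739). Atp5g2 had 39.3, 36.1 and 42.6 CPM in Eumyc and 26.6, 23.8 and 28.3 CPM in WT and rose by 0.59 ± 0.10 (adjusted p = 0.00166). Atp5g1 had 34.8, 35.2 and 39.2 CPM in Eumyc and 23.8, 20.9 and 31.7 CPM in WT and rose by 0.52 ± 0.14 (adjusted p = 0.0173). In all 3 genes WT 3 was the highest WT library, and Atp5g1 missed the threshold without Eumyc 3, WT 1 or WT 2 (adjusted p = 0.0557, 0.0684 and 0.056).

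Summed over the 3 c subunit genes the level was 265 ± 20.9 CPM in Eumyc and 166 ± 25.8 CPM in WT (SD, n = 3 each), a ratio of 1.596. For the catalytic head genes the ratio was 1.38, for the central stalk 1.29, for the peripheral stalk 1.29 and for the other membrane subunits 1.15. Per kilobase of the shortest principal transcript, Atp5g3 held 63.5%, 64.8% and 64.1% of the c subunit transcripts in Eumyc and 60.3%, 60.4% and 60.9% in WT. With the longest principal transcript it held 80.6%, 81.8% and 81.1% in Eumyc and 78.4%, 78.4% and 79.9% in WT. The shares did not overlap between groups by either length, but their size depends on the length used.

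Of the remaining membrane subunits, Atp5k rose by 0.62 ± 0.13 (adjusted p = 0.00492), at 33.3, 26.1 and 33.3 CPM in Eumyc against 19.1, 18.5 and 23.0 CPM in WT. Atp5j2 had 77.2 ± 5.02 CPM in Eumyc and 66.4 ± 7.40 CPM in WT and did not pass (0.22 ± 0.09, adjusted p = 0.0744). Atp5l (ENSMUSG00000038717, chromosome 9 from 44912557 to 44920742), subunit g, had 11.35, 10.95 and 10.59 CPM in Eumyc and 11.9, 15.95 and 15.27 CPM in WT and fell by 0.39 ± 0.13 (adjusted p = 0.0371). The fall was lost without Eumyc 1, Eumyc 2, Eumyc 3, WT 2 or WT 3 (adjusted p = 0.0755, 0.0996, 0.117, 0.135 and 0.0821). The annotation holds 9 near-identical copies of Atp5l, 8 of them in the count table. Gene and copies together had 24.75, 24.89 and 25.31 CPM in Eumyc and 24.95, 26.79 and 29.94 CPM in WT.

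Summed over its genes in CPM without TMM scaling, each complex had more transcript in every Eumyc library than in any WT library. Complex I summed to 1557 ± 87.4 CPM in Eumyc and 1373 ± 58.6 CPM in WT (SD, n = 3 each), a ratio of 1.13. Complex II summed to 483 ± 16.4 CPM in Eumyc and 413 ± 9.68 CPM in WT (ratio 1.17), and complex III to 613 ± 28.1 CPM in Eumyc and 492 ± 30.9 CPM in WT (ratio 1.24). Complex IV summed to 1053 ± 78.9 CPM in Eumyc and 854 ± 43.2 CPM in WT (ratio 1.23). Complex V summed to 2710 ± 153 CPM in Eumyc and 2000 ± 152 CPM in WT, the highest ratio at 1.355.

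**Figure D3:**
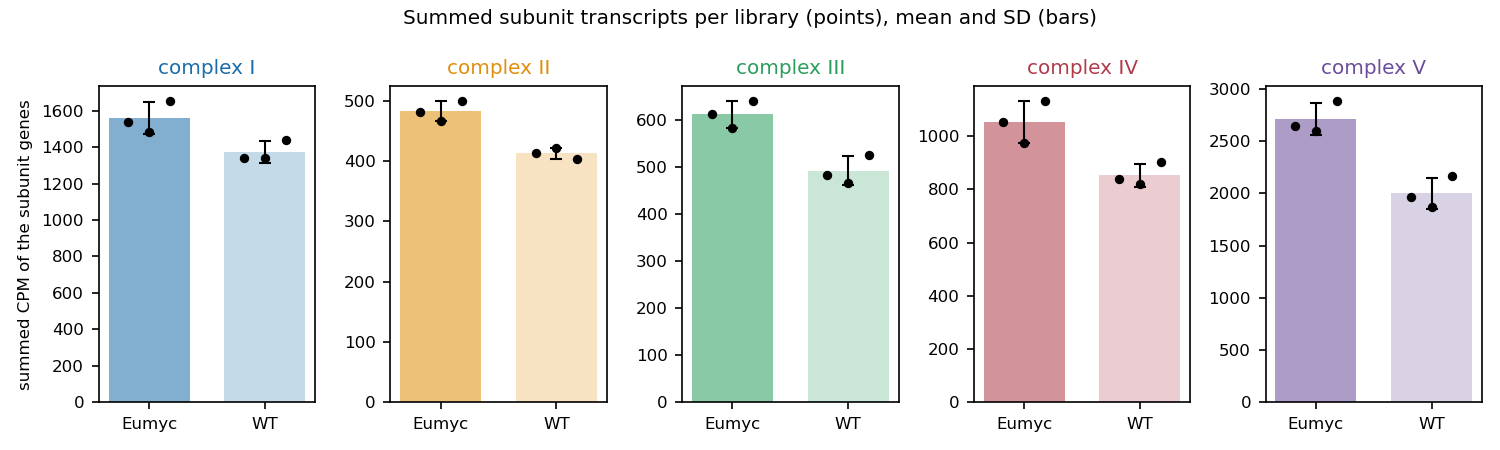
Summed CPM of the subunit genes of each complex, with points for libraries and bars for the mean and SD of Eumyc (left) and WT (right). The groups are separated in every panel, most widely in complex V at 2710 against 2000 CPM.

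Shares were also taken of the summed CPM of the nuclear subunit genes found by the rule. These CPM were not divided by length, so longer transcripts weigh more, and subunits from mitochondrial DNA are not in the total. Complex V took 41.8%, 42.6% and 42.4% in Eumyc and 39.0%, 38.0% and 39.8% in WT. Complex I took 24.3%, 24.2% and 24.3% in Eumyc and 26.5%, 27.3% and 26.5% in WT. These 2 shares did not overlap between groups, in opposite directions. The shares of complexes II, III and IV overlapped, with means of 7.53%, 9.56% and 16.4% in Eumyc and 8.06%, 9.59% and 16.6% in WT. The shares add up to a whole, so they are not independent of each other.

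Levels of different genes were compared per kilobase of the shortest principal transcript. The highest level per kilobase in complex I was that of Ndufb7, at 123.7 CPM in Eumyc and 109.9 CPM in WT, a gene that passed the test only without Eumyc 2 or WT 3 (adjusted p = 0.0495 and 0.0298). In complex II it was that of Sdhb, at 96.1 CPM per kilobase in Eumyc and 71.7 in WT, and in complex III that of Uqcrh, at 187.5 in Eumyc and 156 in WT. Cox8a led complex IV, at 341 CPM per kilobase in Eumyc and 279.5 in WT, and Atp5b led complex V, at 366 in Eumyc and 245 in WT. The same 5 genes led with the longest principal transcript. The median level per kilobase of the tested members was 42.5 CPM in Eumyc and 36.2 CPM in WT in complex I, and 143.5 CPM in Eumyc and 109.7 CPM in WT in complex V.

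Of the 11 members that are not subunits 1 rose and 1 fell. Of the 8 Ndufaf genes, whose proteins build complex I, Ndufaf3 rose by 0.54 ± 0.14 (adjusted p = 0.0115), at 15.4, 12.3 and 12.9 CPM in Eumyc against 10.02, 9.71 and 8.08 CPM in WT. The other 7 did not pass, and the median of the 8 was 0.13. Atp5sl (ENSMUSG00000057229, chromosome 7 from 25619414 to 25625551), named after ATP synthase but known from human cells as the complex I assembly protein DMAC2, had 35.3, 38.1 and 39.7 CPM in Eumyc and 62.4, 59.0 and 56.3 CPM in WT. It fell by 0.65 ± 0.07 (adjusted p = 0.000389), with a wide gap between the groups. Cox7a2l, related to subunit 7A of complex IV, had 148 ± 6.37 CPM in Eumyc and 134 ± 4.16 CPM in WT and did not pass (adjusted p = 0.0542). Atp5s did not pass either (-0.30 ± 0.16, adjusted p = 0.16).

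**Figure D4:**
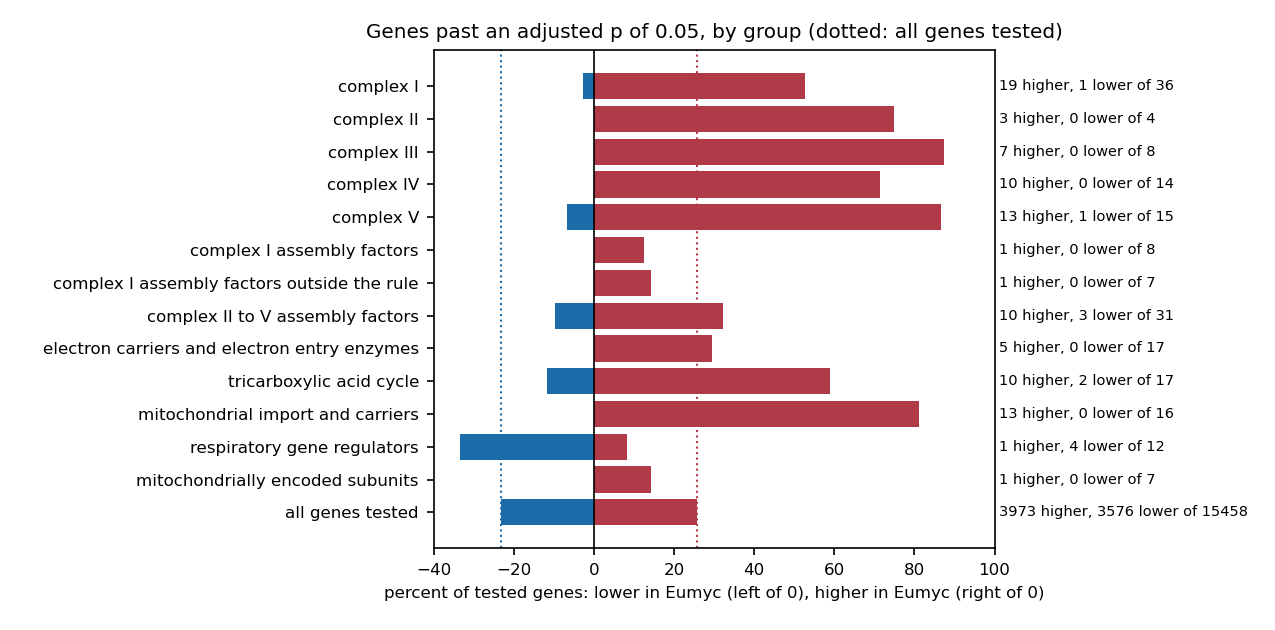
Percent of tested genes that were lower (left of 0) or higher (right of 0) in Eumyc by complex and by pathway list, with dotted lines at the 23.1% lower and 25.7% higher of all genes tested. Complexes II to V and the import and carrier list reach furthest right, and the regulator list furthest left.

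Other genes of the pathway were taken from whole lists. Their counts here and in the next paragraphs stand beside 25.7% higher and 23.1% lower among all genes tested. Of 7 further complex I assembly factors 1 rose (Timmdc1, 0.33 ± 0.10, adjusted p = 0.0218) and none fell, with a median of 0.004. Timmdc1 missed the threshold without Eumyc 1, Eumyc 3 or WT 1 (adjusted p = 0.0731, 0.0515 and 0.0609). Of 31 tested assembly factors of complexes II to V, 10 rose and 3 fell, with a median of 0.15. Without Eumyc 3, 6 rose, and without Eumyc 2 or WT 2, 1 fell. Uqcc2, an assembly factor for cytochrome b in complex III, rose by 0.79 ± 0.13 (adjusted p = 0.0017), at 26.5 ± 0.98 CPM in Eumyc and 15.4 ± 2.62 CPM in WT (SD, n = 3 each). Cox17, the copper chaperone of complex IV, fell by 0.64 ± 0.09 (adjusted p = 0.000698), at 19.5 ± 0.41 CPM in Eumyc and 30.4 ± 2.32 CPM in WT.

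Among 17 electron carriers and electron entry enzymes 5 rose and none fell, with a median of 0.10. The share that rose was near the 25.7% of all genes tested. Cytochrome c (Cycs) had 46.6, 38.5 and 47.3 CPM in Eumyc and 22.5, 21.5 and 23.4 CPM in WT and rose by 0.98 ± 0.10 (adjusted p = 0.000264), beside the 0.78 of Atp5g3. Cyc1, the complex III subunit outside the symbol rule, rose by 0.22 ± 0.05 (adjusted p = 0.0095). Etfa, which passes electrons from fatty acid oxidation, rose by 0.61 ± 0.09. Etfb of the same list lay below WT in every Eumyc library but did not pass (-0.39 ± 0.14, adjusted p = 0.0521).

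In the tricarboxylic acid cycle list 10 of 17 genes rose and 2 fell (median 0.19), led by Fh1, fumarase, at 0.69 ± 0.09 and Idh3a at 0.67 ± 0.10. The genes that fell there were Idh3b, a partner of Idh3a in one enzyme, and Idh2, named here after their values were seen. Idh2 missed the threshold without any 1 library except Eumyc 3 (adjusted p = 0.0723 to 0.171). Of 16 import and carrier genes 13 rose and none fell, with a median of 0.47. The ADP/ATP exchangers led that list, Slc25a4 by 1.005 ± 0.13 and Slc25a5 by 0.995 ± 0.10. Slc25a5 had 428, 406 and 465 CPM in Eumyc and 204, 198 and 251 CPM in WT.

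Of the 13 subunits from mitochondrial DNA 7 were tested, and 1 rose. This was mt-Nd1, by 0.24 ± 0.07 (adjusted p = 0.0169), and it missed the threshold without WT 2 (0.0584). The median was 0.12, with mt-Co1 at 0.18 ± 0.08 and mt-Nd2 at -0.08 ± 0.06, neither of which passed. The genes mt-Nd4l, mt-Co2, mt-Atp6 and mt-Atp8 are listed at 0 counts in every library, and mt-Nd3 and mt-Co3 near 0. Every cell needs these genes, so for these 6 the table gives no level.

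Of 12 regulators of respiratory genes, 1 rose and 4 fell, with a median of 0.015. Pprc1, a coactivator related to PGC-1alpha, rose by 0.33 ± 0.11 (adjusted p = 0.0402), at 62.8, 68.3 and 65.8 CPM in Eumyc and 48.1, 46.0 and 62.8 CPM in WT. Ppargc1a, which encodes PGC-1alpha itself, fell by 1.28 ± 0.31 (adjusted p = 0.0104) at 1.63 ± 0.54 CPM in Eumyc and 3.93 ± 1.27 CPM in WT (SD, n = 3 each). The nuclear receptor gene Esrra, the mitochondrial RNA polymerase gene Polrmt and the transcription factor gene Tfb2m also fell, by 0.23 ± 0.06, 0.26 ± 0.08 and 0.26 ± 0.09. Pprc1 was lost without Eumyc 1, Eumyc 2, Eumyc 3, WT 1 or WT 2 (adjusted p = 0.0508 to 0.129) and Tfb2m when any 1 of the 6 libraries was left out (0.0543 to 0.16). Polrmt was lost without Eumyc 1, Eumyc 3, WT 1 or WT 3 (0.0554 to 0.0941), and the count that fell was then 2. Nrf1, Gabpa and Yy1, whose motifs were read above, did not pass, with log2 fold changes of 0.06 ± 0.05, 0.07 ± 0.06 and -0.03 ± 0.05.

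Libraries within a group were also ordered across the members. WT 3 lay above the mean of WT 1 and WT 2 for 71 of 88 members, with a median of 0.13 on the log2 scale, and for 49.2% of all genes tested. In complex V this held for 15 of 15 genes, with a median of 0.20, and in complex II for 1 of 4. Eumyc 2 was the lowest Eumyc library for 69 of 88 members and Eumyc 3 the highest for 62. WT 3 and Eumyc 3 were also the libraries with the highest sum of cell division markers in their groups, and WT 3 was the shallowest. Without WT 3, 57 members rose and 2 fell, and in complex V 14 rose.

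**Figure D5:**
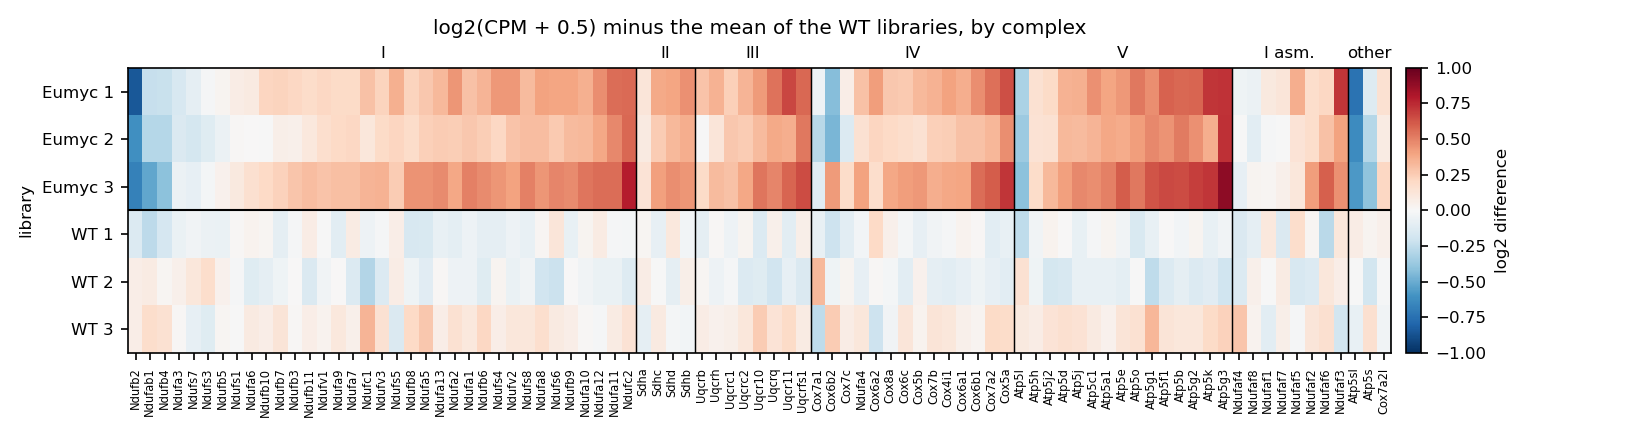
Log2(CPM + 0.5) minus the mean of the WT libraries for 87 of the 88 tested members (columns, by complex) in each library (rows, Eumyc above WT), with red for higher and blue for lower. The 3 Eumyc rows are red over most of complexes II to V, the WT 3 row is faintly red, and Ndufb2, Atp5l and Atp5sl are blue in Eumyc.

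Short genes with many copies are hard to count. Members tested had a median exon length of 1737 bases, and all genes tested 3722. Of the 93 members 13 had a near-identical copy elsewhere and 32 shared exon bases with another gene. Among the 51 tested members with neither, 30 rose and 1 fell (Atp5sl), with a median of 0.29. Complex V kept 4 such genes, of which 3 rose. Genes that rose and have copies include Ndufs6, Atp5c1, Atp5g1, Atp5g2, Atp5h, Atp5k and Atp5o. With its copy, Atp5g1 had 46.2, 45.25 and 51.0 CPM in Eumyc and 32.6, 26.9 and 41.7 CPM in WT. With its 4 copies, Atp5h had 150.6, 148.6 and 153.7 CPM in Eumyc and 127.9, 128.2 and 138.8 CPM in WT. Cox4i1, Cox5a, Uqcrc2 and Atp5f1 rose and share exon bases with another gene. The authors' deposited table lists 86 of the 93 members and calls 53 higher and 4 lower in Eumyc, against 30.5% and 29.5% of its genes, and its call was the same for 85 of the 86.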

How the data were processed

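RNA of 6 libraries, 3 Eumyc and 3 WT, was sequenced after TruSeq preparation. The authors deposited whole-number counts per Ensembl gene, and mouse build GRCm38 (mm10) with STAR (2.5.2), HTSeq (0.6.1) and also DESeq2 (1.10.1) is listed per the submitters' processing notes. Annotation release and strand setting are not given in these sources. A second file deposited by the authors compares the groups, with log2 fold changes, p-values, a score (test statistic) and a mean signal per gene, of which the log2 fold changes and p-values were read.

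The test was the quasi-likelihood test of edgeR 4.0.16 under R 4.3.3 (filterByExpr with a minimum count of 10, TMM scaling, group as the only term, two-sided) over 15458 genes. CPM of single genes and levels per kilobase are TMM-scaled, sums over a complex or marker list are CPM of all gene counts without TMM, and SE come from the F statistic. Lengths, copies (at least 95% identity over at least 50% of the transcript, BLAST 2.17.0) and exon overlaps are from GENCODE M21, in which 74 of the 93 members had the coordinates of the deposited table. Another 7 rows match by symbol but are not protein-coding and were left out. Alternatives used DESeq2 1.42.0, limma 3.58.1, other scalings and filters, a replicate block, each library left out, equal depth, and trends with GC and length (mgcv 1.9.3, added after seeing the data). Named were all Sdh and Uqcr genes, the core complex I genes except 1 that is not reported here, isoform families, members that fell, the 3 largest called changes per complex and the 2 largest per list at 10 CPM or more. Members and lists were chosen with earlier results of these data known, and a few further genes are values from whole lists. The scripts were tested on simulated data. Counting error only is covered by depth, since PCR copies were not marked.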

Additional observations from a re-analysis of the deposited data

How the results depend on the processing

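Counts of genes that rose in complexes II, III, IV and V, and of the 8 Ndufaf genes, stayed within 1.5 times their counts in all 18 settings that refit the genes. Leaving out members with copies or exon overlap is not among these settings. It left 3 of 4 tested genes rising in complex V, 7 of 9 in complex IV and 0 of 6 Ndufaf genes. Of the 53 members that rose, 35 passed in all 18 settings that refit the genes, 9 of 19 in complex I, 3 of 3 in II, 5 of 7 in III, 6 of 10 in IV and 11 of 13 in V. The complex I count of 19 was 12 at equal depth, 11 with GC and length trends removed and 12 with the length trend alone removed, and 12 to 22 with a library left out. The complex I count that fell, 1, was 2 with DESeq2, upper quartile, total counts, the filter of 3 CPM in 3 libraries, and GC and length trends removed, and 1 to 2 with a library left out. For complex V it was 0 with no filter, with GC and length, GC alone or length alone removed, 2 by symbol prefix alone, and 0 to 1 with a library left out. For all subunits, 2 fell, and 1 did with no filter, GC alone or length alone removed, and 1 to 3 with a library left out. The pathway lists held 9 genes that fell, 5 with no filter and at equal depth, and 5 to 6 with a library left out. Directions turned only in genes that did not pass, and the genes named here are examples. Over the 18 settings Ndufa6 ranged over -0.0025 to 0.14, Ndufb5 over -0.034 to 0.053 and Ndufaf1 over -0.093 to 0.10. Ndufaf4 ranged over -0.11 to 0.11 and Ndufaf7 over -0.052 to 0.11. With a library left out, the log2 fold change ranged over -0.1134 to 0.0456 in Ndufs3, -0.53 to 0.00897 in Cox7a1 and -0.79 to 0.14 in Cox6b2, which was 0.0875 at equal depth. The largest move of the median of all genes was 0.0948, with no filter. The cause of these changes was not tested.

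Libraries of the groups share replicate numbers. The correlation of same-numbered deviations from the group means was 0.04, 0.10 and 0.13, so the numbers were not taken to pair the libraries, although each correlated best with its own number. With a replicate block 58 members rose and 3 fell, with 22 rising in complex I, against 53 and 3, and 19, without it. Low counts limit Cox6b2 and Cox7a1, at 1.28 CPM or less in every library.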
